A study of Mus musculus with 6 samples.

Results

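The genes described here encode the enzymes that remove peroxides and superoxide, the enzymes that make, recycle and conjugate glutathione, and the main regulator of their transcription. They were chosen by a rule on gene symbols that uses no measured value, although it was written with earlier results of these data known: the glutathione S-transferases of the alpha, kappa, mu, omega, pi and theta classes, the glutathione peroxidases, the peroxiredoxins, the 3 superoxide dismutases, and Nfe2l2, Keap1, Nqo1, Hmox1, Txn1, Txnrd1, Gclc, Gclm, Gsr, Gss, Cat and Srxn1. This gave 49 genes of the 19893 gene symbols that had a value in every library. RNA was sequenced from spheres grown from MMTV-HER2/Neu mice on the FvB background, whose Neu (ErbB2) oncogene is expressed in mammary epithelium from the promoter of a mammary tumour virus. The early lesion (EL) spheres were grown from mice aged 14 to 18 weeks in which no tumour could be felt. The primary tumour (PT) spheres were grown from mice older than 20 weeks that bore tumours, and each group had 3 libraries. Age and tumour stage therefore changed together, and their parts cannot be told apart. Both kinds of tissue were digested and the cells were held for 7 days in mammosphere medium on plates to which cells do not attach. The protocol names mammary glands, whereas a tissue label of the EL libraries also names lung. The labels do not tell whether replicate libraries are different animals, and a p-value therefore reflects only how far these libraries spread, which can be technical.

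Cells produce superoxide and hydrogen peroxide as by-products of respiration, oxidative protein folding and other oxidase reactions. Superoxide dismutases convert superoxide to hydrogen peroxide, which catalase, the peroxiredoxins and the glutathione peroxidases then reduce. Most of the peroxiredoxins take electrons from thioredoxin, and most of the glutathione peroxidases take them from the tripeptide glutathione. The transcription factor NRF2 (Nfe2l2) is held in the cytosol and marked for degradation by KEAP1, and when released it binds antioxidant response elements near many of these genes. Glutathione S-transferases attach glutathione to reactive lipids and foreign compounds, and the family grew by gene duplication, so that several classes lie as clusters of neighbouring genes.

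Total counts per library lay between 69759793 and 85126630. The table of EL replicate 1 is incomplete, but it held all 49 genes. Levels are given as CPM, read counts divided by library size after correction with TMM factors, which set the bulk of genes level between libraries. Across genes, log2 CPM correlated at 0.995 or more between EL libraries and 0.997 or more between PT libraries, and at 0.839 to 0.847 between an EL and a PT library. Markers of other cell types separated the groups. The summed level of 10 fibroblast markers lay between 65420 and 69830 CPM in EL and between 652.9 and 780.3 CPM in PT, with Col1a1, a fibrillar collagen, at 19010 ± 487 and 178 ± 16.4 CPM (mean ± SD, n = 3 each) and the receptor Pdgfra at 402 ± 25.1 and 7.76 ± 0.363 CPM. The summed level of 10 endothelial markers lay between 219 and 238 CPM in EL and between 2.73 and 3.31 CPM in PT, with Pecam1 at 47.4 ± 2.16 and 0.266 ± 0.0978 CPM and Cdh5 at 69.5 ± 1.06 and 0.223 ± 0.101 CPM. All members of both lists fell. All 10 epithelial markers rose, from a summed 2563 to 2619 CPM in EL to 8850 to 9232 CPM in PT, with the keratin Krt8 at 456 ± 4.62 and 1834 ± 45.3 CPM and Epcam at 482 ± 9.14 and 1167 ± 12.8 CPM. Of 9 macrophage markers tested, 8 rose, from a summed 73.5 to 96.5 CPM in EL to 179 to 207 CPM in PT, with C1qa at 8.62 ± 1.27 and 49.0 ± 4.26 CPM; Csf1r, at 16.1 ± 1.90 and 18.1 ± 1.95 CPM, did not pass the test. All 4 tested adipocyte markers fell, from a summed 371 to 441 CPM to 32.7 to 41.2 CPM, while the defining adipocyte gene Adipoq had at most 8 counts in any library. Of the neutrophil markers 3 were tested, with a summed 16.4 to 19.2 CPM in EL and 6.26 to 6.86 CPM in PT, and 1 rose and 2 fell. The labels call the cells breast cancer cells, yet both fibroblast and endothelial markers were abundant in EL. Lung epithelial markers were low or absent: Sftpa1, Scgb1a1 and Nkx2-1 had 0 counts in every library and Sftpc had at most 11, although Sftpd and Foxj1 rose, from 8.07 ± 0.849 to 72.1 ± 3.27 CPM and from 7.24 ± 0.881 to 53.1 ± 3.03 CPM. Red cell markers summed to at most 0.488 CPM in every library. In bulk RNA, fewer cells of a type and less RNA per cell cannot be told apart, and the part of these markers in the changes of the antioxidant genes was not tested.

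The antioxidant genes moved in both directions, and of the 42 tested the greatest changes were the falls of Gpx7, a peroxidase of the endoplasmic reticulum (64.8-fold), the mu-class transferase Gstm2 (37.5-fold), and the secreted enzymes Gpx3 (24.9-fold) and Sod3 (20.5-fold). Of the 49 genes, 42 had enough counts to be tested, and 15 of them (35.7%) were higher and 22 (52.4%) lower in PT at an adjusted p under 0.05 in edgeR's quasi-likelihood test. Among all 13844 genes tested, 39.9% were called higher and 40.8% lower, 80.7% in all, so that a call alone sets a gene apart little. More than a 2-fold rise with a call was seen in 5 of the 42 genes (11.9%, against 9.43% of all genes), and more than a 2-fold fall in 9 (21.4%, against 19.4%). In 36 of the 42 genes all values of one group lay above all values of the other (85.7%, against 82.7% of all genes). The median log2 fold change (PT minus EL) was -0.19 for the 42 genes and 0.00487 for all genes. Summed over the 49 genes, the level was nearly the same in both groups, at 4262, 4409 and 4562 CPM in EL and 4481, 4486 and 4437 CPM in PT. This holds only with TMM factors, which were 0.914 to 0.922 in EL and 1.088 to 1.091 in PT. Without them the EL sums would be lower and the PT sums higher. With libraries scaled by their totals alone, the median of all genes shifted up by 0.25 and the split of the 42 genes became 21 higher and 16 lower. Over all genes the called ones were then 65.8% higher, against 49.5% with TMM factors, so small differences here depend on the scaling.

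**Figure D1:**
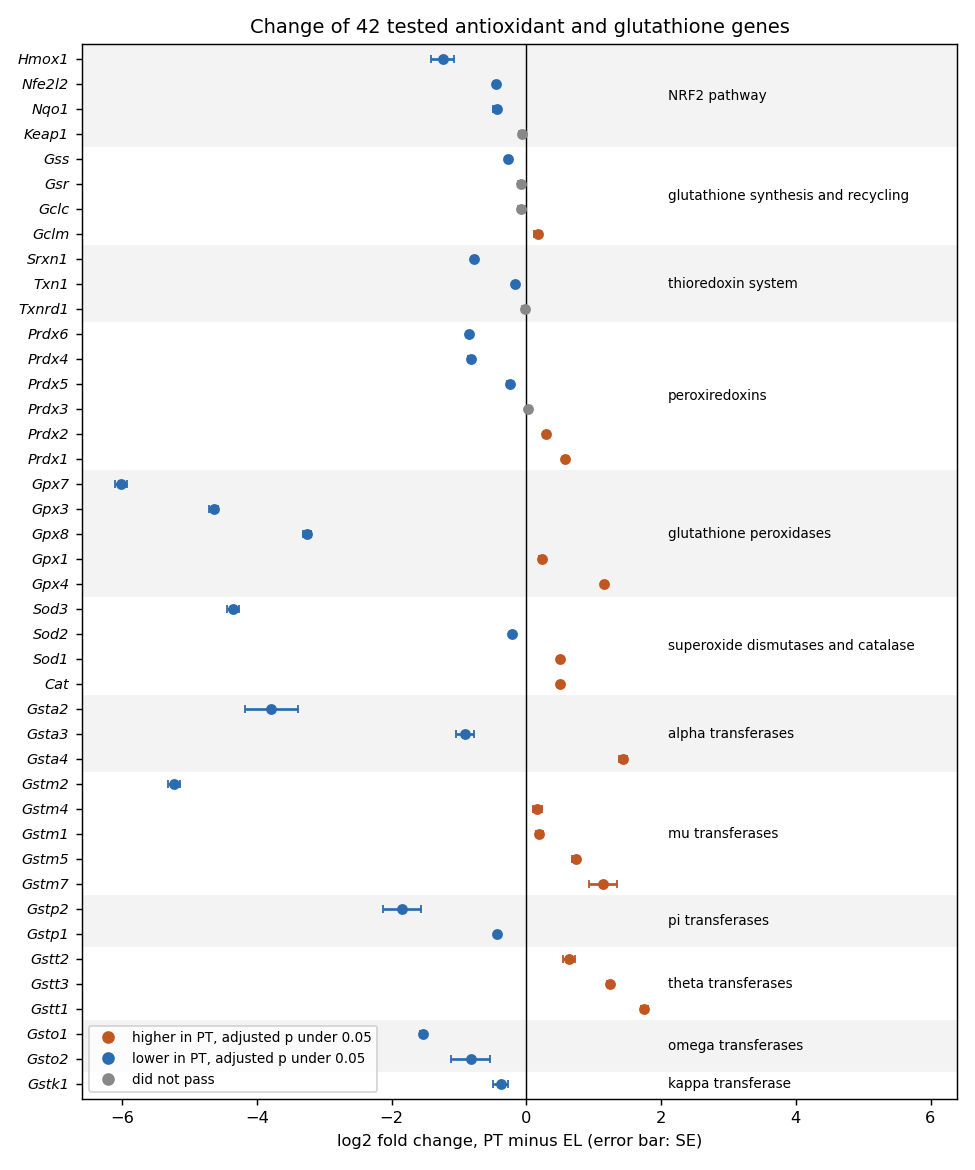
Log2 fold change (PT minus EL, x axis) of the 42 tested genes, grouped by family; points are estimates from edgeR with 3 libraries per group, bars are standard errors, and colours give the call. The points range from -6.02 for Gpx7 to 1.75 for Gstt1.

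A short sequence is shown first because it divides the glutathione peroxidase family, which held the greatest changes, into enzymes with and without selenium. In a selenoprotein a TGA codon inside the reading frame is read as selenocysteine instead of stop, and this residue carries out the reaction. An in-frame TGA was found in the mouse coding sequences (GENCODE M21, GRCm38) of Gpx1 at codon 47, Gpx2 at codon 40, Gpx3 at codon 73, Gpx4 at codon 129 and Txnrd1 at codon 498 of 500, counted from the start codon of the transcript used. No in-frame TGA other than a final stop was found in Gpx5, Gpx6, Gpx7 or Gpx8. The stretches around it follow, with 5 codons on each side (fewer at the end of Txnrd1) and the TGA in capitals.
Gpx1: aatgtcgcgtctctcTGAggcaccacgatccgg
Gpx2: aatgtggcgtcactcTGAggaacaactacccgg
Gpx3: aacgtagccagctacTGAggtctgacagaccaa
Gpx4: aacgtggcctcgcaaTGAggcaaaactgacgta
Txnrd1: ctccagtctggctgcTGAggttaa

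The transcripts of NRF2 itself and of its targets Nqo1, Srxn1 and Hmox1 were lower in PT, and Keap1 did not pass the test. Nfe2l2 stood at 169, 167 and 173 CPM in EL replicates 1 to 3 and at 122, 125 and 126 CPM in PT replicates 1 to 3. Every EL library was above every PT library, and the transcript of the regulator fell by 0.45 on the log2 scale (SE 0.03, adjusted p = 1.5e-08, edgeR). Keap1, its inhibitor, was measured at 72.3, 68.9 and 66.2 CPM in EL and at 67.6, 65.3 and 65.4 CPM in PT. Those ranges overlapped, and Keap1 did not pass the test (log2 fold change -0.06, SE 0.04, adjusted p = 0.14, edgeR). Without EL replicate 3 it was called lower, at an adjusted p of 0.0488 in edgeR. Of the 50-base words of its transcript, 11.8% also occur in another gene model, so some of its reads may be uncertain.

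Nqo1, a quinone reductase used as a readout of NRF2, had 54.4, 62.4 and 57.9 CPM in EL and 43.8, 40.2 and 44.5 CPM in PT. The groups did not overlap, and the log2 fold change was -0.44 (SE 0.05, adjusted p = 5.91e-06, edgeR). Srxn1, sulfiredoxin, which repairs over-oxidised peroxiredoxins, was at 88.8, 94.0 and 97.9 CPM in EL and at 53.5, 55.1 and 55.5 CPM in PT. It fell in every PT library relative to every EL library, with a log2 fold change of -0.77 (SE 0.04, adjusted p = 8.88e-10, edgeR).

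Hmox1, heme oxygenase, which breaks heme down into biliverdin, iron and carbon monoxide, behaved unlike the others in its spread. It stood at 131, 170.3 and 252 CPM in EL and at 73.8, 84.3 and 75.9 CPM in PT. All EL libraries were above all PT libraries, but the EL libraries themselves ranged widely. The log2 fold change was -1.24 (SE 0.17, adjusted p = 1.68e-05, edgeR), and against a 2-fold minimum change the adjusted p was 0.105, where the other alternatives gave 1.05e-12 to 0.000166. Its coefficient of variation within EL was 33.4%, where the median was 3.08% over 3175 genes within 2-fold of its level, of which 99.9% varied less. Within PT the coefficient was 7.11%. Without EL replicate 3, the highest, its log2 fold change was -0.95.

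**Figure D2:**
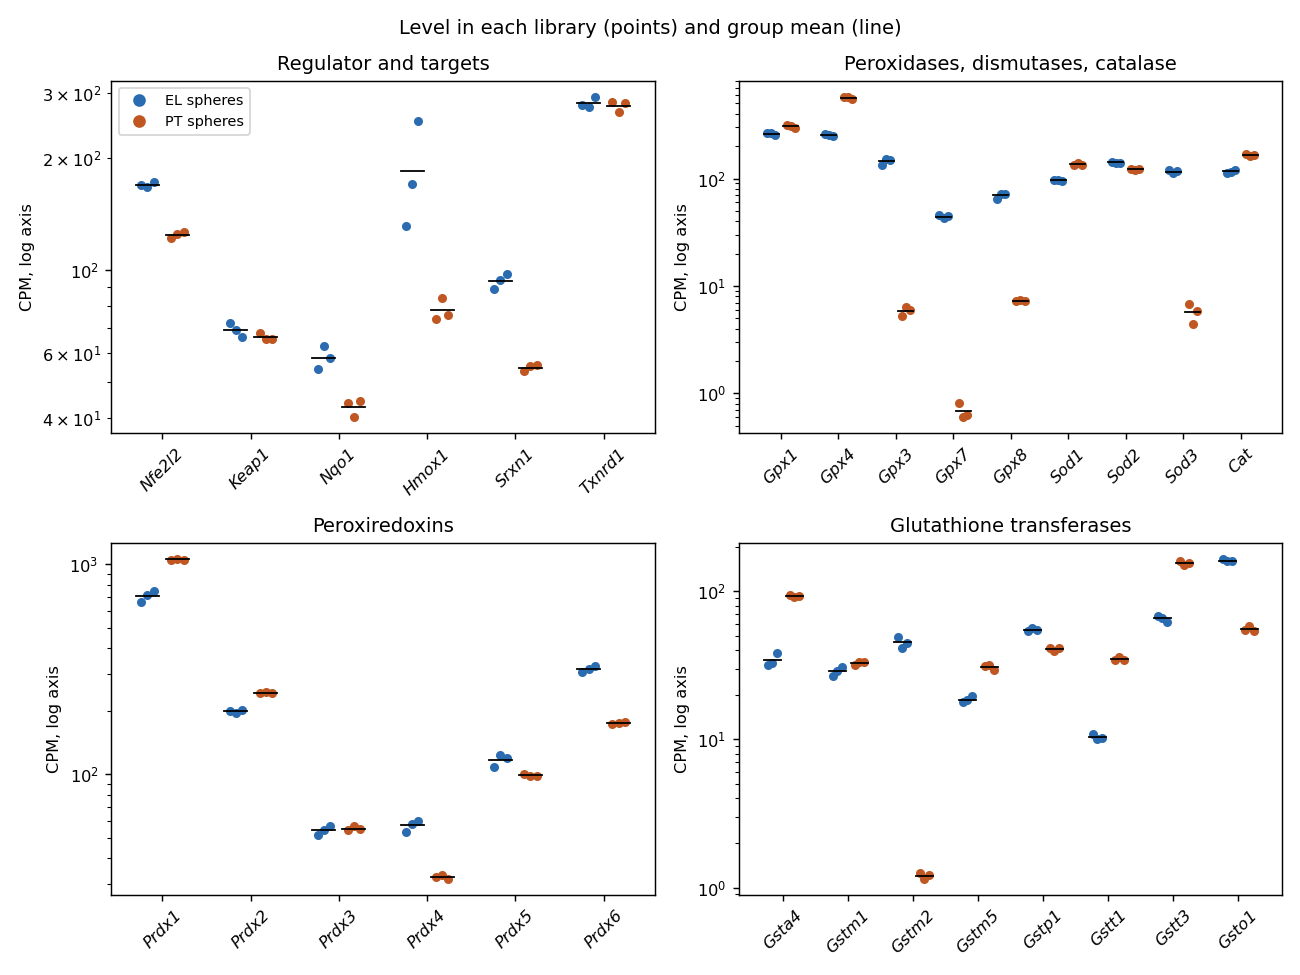
Level of 29 of the antioxidant genes in each of the 6 libraries (points, CPM on a log axis) with the group mean as a line, EL in blue and PT in orange. In the panel of peroxidases, dismutases and catalase, Gpx3, Gpx7, Gpx8 and Sod3 lie below 8 CPM in all PT libraries and above 42 CPM in all EL libraries, and in the first panel the 3 EL points of Hmox1 spread from 131 to 252 CPM.

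The genes that make and recycle glutathione differed little between the groups. Gclc, the catalytic subunit of glutamate-cysteine ligase, which carries out the first and limiting step of glutathione synthesis, was at 42.6, 40.7 and 46.4 CPM in EL and 42.5, 40.8 and 39.9 CPM in PT. It did not pass the test (log2 fold change -0.07, SE 0.05, adjusted p = 0.185, edgeR), and its ranges overlapped. Gclm, the modifier subunit of the same ligase, was at 34.0, 37.9 and 39.4 CPM in EL and 42.0, 41.6 and 41.3 CPM in PT. It rose slightly, with no overlap (log2 fold change 0.17, SE 0.05, adjusted p = 0.00848, edgeR).

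Gss, glutathione synthetase, the second enzyme of the pathway, was at 45.4, 46.9 and 44.6 CPM in EL and at 37.4, 39.1 and 37.1 CPM in PT. It fell without overlap (log2 fold change -0.27, SE 0.04, adjusted p = 3.7e-05, edgeR), a call that did not hold with libraries scaled by totals. Gsr, glutathione reductase, which regenerates glutathione from its disulfide, had 56.9, 59.7 and 61.0 CPM in EL and 54.5, 55.7 and 57.1 CPM in PT. These values overlapped, and the difference was just outside the threshold (log2 fold change -0.09, SE 0.04, adjusted p = 0.053, edgeR). Gsr was called lower with RLE factors (adjusted p = 0.035, edgeR) and without EL replicate 1 (0.00727), and Gclc without EL replicate 2 (0.0498). With libraries scaled by totals, by contrast, Gclc, Gsr and Keap1 were called higher, at log2 fold changes of 0.17, 0.16 and 0.18.

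The thioredoxin system, which feeds electrons to most of the peroxiredoxins, also differed little. Txn1, thioredoxin, was at 208, 217 and 223 CPM in EL and 190.5, 197 and 190.3 CPM in PT. It fell by 0.17 on the log2 scale (SE 0.03, adjusted p = 0.000456, edgeR) without overlap, but rose by 0.08 with libraries scaled by totals. Txnrd1, the selenoenzyme that reduces thioredoxin, was at 278, 275 and 292 CPM in EL and at 283, 266 and 281 CPM in PT. The groups overlapped and it did not pass the test (log2 fold change -0.02, SE 0.04, adjusted p = 0.546, edgeR), although with libraries scaled by totals it was called higher, at 0.22.

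Among the peroxiredoxins, the thiol peroxidases that remove most cytosolic hydrogen peroxide, Prdx1 and Prdx2 rose while Prdx4, Prdx6 and, by a small step that turned with libraries scaled by totals, Prdx5 fell. Prdx1, the abundant cytosolic form, was at 658, 718 and 743 CPM in EL and at 1051, 1063 and 1053 CPM in PT. Its groups did not overlap and its log2 fold change was 0.58 (SE 0.04, adjusted p = 2.6e-08, edgeR). Prdx2, also cytosolic, was at 201, 195 and 202 CPM in EL and at 244, 246 and 244 CPM in PT. It rose with no overlap, by a log2 fold change of 0.29 (SE 0.03, adjusted p = 7.28e-07, edgeR). Of the 50-base words of Prdx2, 24.0% also occur in other gene models, and of those of Prdx1 10.9%.

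Prdx3, the mitochondrial form, was at 51.7, 54.1 and 56.7 CPM in EL and 54.2, 56.5 and 55.0 CPM in PT. The 2 ranges overlapped and it did not pass (log2 fold change 0.03, SE 0.04, adjusted p = 0.526, edgeR), although it was called higher, at 0.28, with libraries scaled by totals. Prdx4, the peroxiredoxin of the endoplasmic reticulum, had 53.5, 58.1 and 60.2 CPM in EL and 32.6, 33.1 and 31.8 CPM in PT. It fell without overlap, by 0.82 on the log2 scale (SE 0.05, adjusted p = 2.68e-09, edgeR).

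Prdx5, which reaches mitochondria, peroxisomes and cytosol, was at 109, 123.3 and 119.5 CPM in EL and at 101, 98.7 and 97.9 CPM in PT. It was lower without overlap (log2 fold change -0.24, SE 0.04, adjusted p = 0.000193, edgeR), but at 0.01 with libraries scaled by totals, and 29.7% of its 50-base words also lie in Trmt112, so reads of the pair may have been shared. Prdx6, which also acts on phospholipid peroxides, was at 308, 318 and 329 CPM in EL and 175, 175 and 178 CPM in PT. It fell by 0.85 on the log2 scale (SE 0.03, adjusted p = 3.54e-11, edgeR), and no library of one group reached the range of the other. Per kilobase of transcript, Prdx1 made up 40.4 ± 0.745% of the summed level of the 6 peroxiredoxins in EL and 54.4 ± 0.0766% in PT, and Prdx6 17.5 ± 0.240% and 8.72 ± 0.124% (mean ± SD, n = 3 each).

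The glutathione peroxidases held the greatest contrasts. Gpx4, the selenoenzyme that reduces lipid hydroperoxides in membranes and restrains ferroptosis, was at 258, 254 and 248 CPM in EL and at 571, 573 and 549 CPM in PT. All PT libraries were more than 2-fold above all EL libraries. Its level rose 2.23-fold (log2 fold change 1.15, SE 0.03, adjusted p = 1.17e-12, edgeR). Of its 50-base words 61.7% also occur in the pseudogene Gpx4-ps2, so reads may have been split or dropped, and its value is uncertain to that extent. Gpx1, the broadly expressed cytosolic selenoenzyme, was at 266, 266 and 254 CPM in EL and 312, 309 and 298 CPM in PT. It rose without overlap, by a log2 fold change of 0.23 (SE 0.03, adjusted p = 2.49e-05, edgeR).

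Gpx3, the secreted selenoenzyme of extracellular fluid, was at 135, 153 and 149 CPM in EL and at 5.23, 6.35 and 5.91 CPM in PT. The PT libraries were far below the EL libraries, 24.9-fold on average (log2 fold change -4.64, SE 0.07, adjusted p = 2.97e-15, edgeR). Gpx7, a peroxidase of the endoplasmic reticulum without selenium that takes part in oxidative protein folding, was at 45.3, 42.6 and 44.6 CPM in EL and at 0.819, 0.599 and 0.629 CPM in PT. Its 64.8-fold fall was the greatest of the 42 genes (log2 fold change -6.02, SE 0.09, adjusted p = 2.39e-15, edgeR), with 109 counts in all remaining over the 3 PT libraries. Gpx8, the membrane-bound relative of Gpx7 in the same compartment, was at 64.97, 72.1 and 72.4 CPM in EL and at 7.23, 7.40 and 7.31 CPM in PT. It fell 9.54-fold without overlap (log2 fold change -3.25, SE 0.06, adjusted p = 1.19e-14, edgeR).

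The selenocysteine codon shown above did not divide the genes that rose from those that fell, since Gpx3 carries it and fell with Gpx7 and Gpx8, which lack it, while Gpx1 and Gpx4 carry it and rose. Gpx2, the epithelial form best known from the gut, had 32 counts in all EL libraries together and 17 in all PT libraries, and was not tested. Gpx5 and Gpx6 had 0 counts in every library, where 3 counts would correspond to between 0.0539 and 0.0755 CPM. Per kilobase of transcript, Gpx4 and Gpx1 made up 36.8 ± 0.685% and 35.3 ± 0.650% of the family's summed level in EL, and 65.6 ± 0.153% and 33.1 ± 0.183% in PT. Gpx3, Gpx8 and Gpx7 held 13.2 ± 0.810%, 9.68 ± 0.567% and 4.96 ± 0.217% in EL and 0.423 ± 0.0430%, 0.813 ± 0.0210% and 0.0612 ± 0.0101% in PT. The family's summed level was 775 ± 11.4 CPM in EL and 884.5 ± 20.5 CPM in PT, so its make-up differed much more than its sum.

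**Figure D3:**
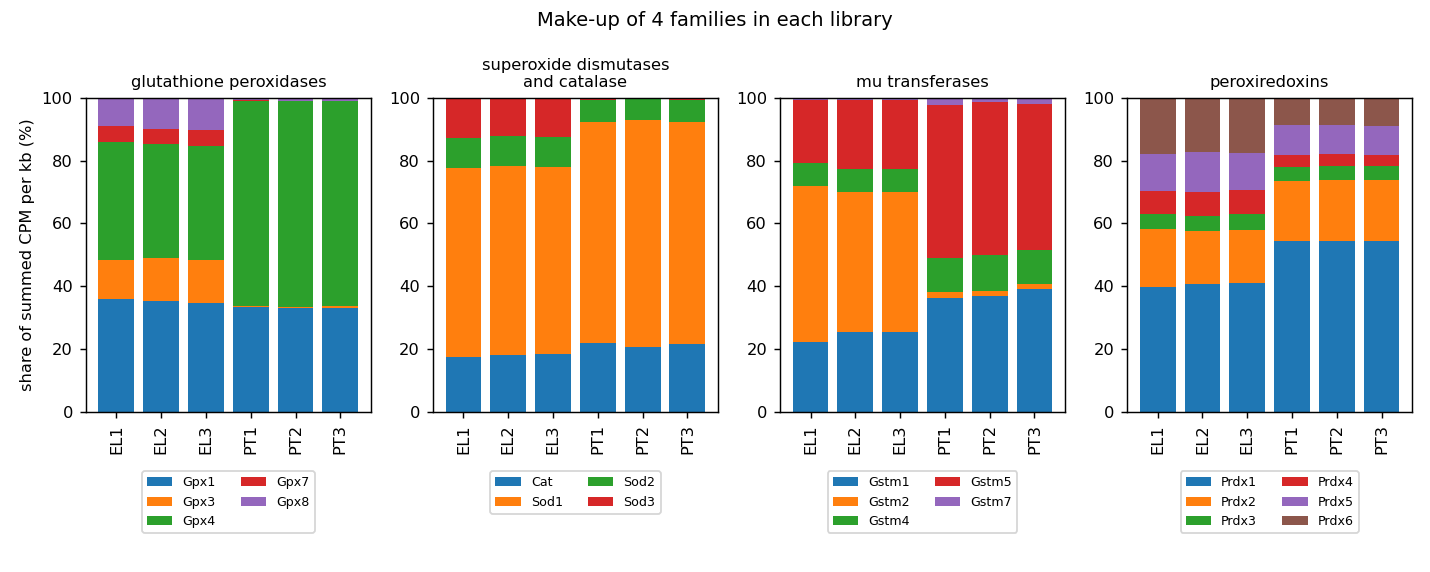
Make-up of 4 families in each of the 6 libraries, as the share (%) of the family's summed CPM per kilobase of transcript; genes too low to see are not in the keys. Gpx4 takes 36.8% of the peroxidases in EL and 65.6% in PT, and Gstm2 46.3% and 1.67% of the mu class.

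The 3 superoxide dismutases, which work in different compartments, differed in their response. Sod1, the cytosolic copper-zinc enzyme, was at 96.5, 95.9 and 95.5 CPM in EL and at 133, 139 and 133 CPM in PT. It rose without overlap (log2 fold change 0.50, SE 0.03, adjusted p = 7.73e-09, edgeR), and 23.1% of its 50-base words lie in another gene model. Sod2, the mitochondrial manganese enzyme, was at 142, 140.1 and 141 CPM in EL and 124, 119.9 and 122.8 CPM in PT. It fell by 0.21 on the log2 scale (SE 0.03, adjusted p = 2.53e-05, edgeR) without overlap, but was at 0.04 with libraries scaled by totals. Sod3, the secreted form bound to the extracellular matrix, was at 119, 113 and 117 CPM in EL and 6.73, 4.44 and 5.82 CPM in PT. It fell 20.5-fold (log2 fold change -4.36, SE 0.09, adjusted p = 4.93e-14, edgeR), and the groups lay far apart. Cat, catalase, the hydrogen peroxide enzyme of peroxisomes, was at 114, 116 and 119.8 CPM in EL and at 169, 162 and 165 CPM in PT. It rose in all PT libraries relative to all EL libraries (log2 fold change 0.51, SE 0.03, adjusted p = 7.96e-09, edgeR).

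Grouped by the compartment in which the protein is known to work, a grouping made after the values had been seen, the enzymes of the endoplasmic reticulum lumen or the extracellular space (Prdx4, Gpx3, Gpx7, Gpx8 and Sod3; Gpx5 and Gpx6 had no counts) were all lower in PT. Their log2 fold changes ran from -6.02 to -0.82 with a median of -4.36, and their summed level was 417, 438 and 443 CPM in EL and 52.6, 51.9 and 51.4 CPM in PT. The 29 tested cytosolic enzymes divided into 13 higher, 12 lower and 4 not called. That split was near that of all genes tested, of which 39.9% were called higher and 40.8% lower. The summed level of the cytosolic enzymes was 2936 ± 69.6 CPM in EL and 3204 ± 11.5 CPM in PT. The fibroblast and endothelial marker lists given above fell with the first group, and their part in it was not tested. Per kilobase of transcript, the highest of the 49 genes in EL were Prdx1 at 308, Gpx4 at 255, Gpx1 at 244 and Txn1 at 206 CPM per kb. In PT they were Gpx4 at 567, Prdx1 at 460.2, Gpx1 at 286 and Sod1 at 211 CPM per kb.

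Each class of glutathione S-transferases had its own pattern. In the theta class, which has activity toward small halogenated compounds, all 3 tested genes were higher in PT. Gstt1 was at 10.9, 10.02 and 10.2 CPM in EL and 34.3, 36.2 and 34.2 CPM in PT. It rose 3.36-fold without overlap (log2 fold change 1.75, SE 0.05, adjusted p = 4.3e-12, edgeR). Gstt3 was at 68.4, 66.3 and 62.5 CPM in EL and 159, 151 and 155 CPM in PT. It rose 2.36-fold (log2 fold change 1.24, SE 0.04, adjusted p = 4.24e-12, edgeR), although 26.0% of its 50-base words also lie in an overlapping gene model, Gm20441. Gstt2 was at 8.40, 9.67 and 8.12 CPM in EL and at 13.2, 15.1 and 12.4 CPM in PT. It rose without overlap by a log2 fold change of 0.64 (SE 0.09, adjusted p = 2.77e-05, edgeR). Gstt4, which lies between Gstt1 and Gstt2 on chromosome 10, had 2 counts in each group and was not tested. The class as a whole went from 84.8 ± 3.62 to 203.6 ± 2.48 CPM.

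In the alpha class, whose members act on lipid peroxidation products, Gsta4 had the highest level per kilobase in both groups. Gsta4, the form most active on 4-hydroxynonenal, was at 31.7, 33.0 and 38.1 CPM in EL and at 94.3, 90.8 and 92.6 CPM in PT. It rose 2.70-fold without overlap (log2 fold change 1.43, SE 0.06, adjusted p = 4.25e-11, edgeR). Gsta3 was lower in PT, at 6.07, 5.29 and 7.35 CPM in EL and 3.41, 2.88 and 3.65 CPM in PT. The groups of Gsta3 did not overlap (log2 fold change -0.91, SE 0.14, adjusted p = 3.96e-05, edgeR). Gsta2 was near the detection floor, at 0.786, 1.18 and 0.722 CPM in EL and at 0.039, 0.0749 and 0.0719 CPM in PT. It was lower without overlap (log2 fold change -3.79, SE 0.39, adjusted p = 1.21e-06, edgeR), with 108 counts in EL and 10 in PT, and 64.2% of its 50-base words are shared with other gene models, 44.8% with Gsta1. Gsta1 had 2 counts in each group and was not tested. Gsta4 made up 78.8 ± 0.945% of the class per kilobase in EL and 95.4 ± 0.455% in PT. The length used for Gsta3, 742 bases, came from a transcript model whose coding sequence has no final stop codon. The shares within the class are uncertain to that extent.

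In the mu class several genes are close copies of each other, and the start of the coding sequence is printed for 4 of equal coding length that show both the fall of Gstm2 and the smaller rises of its relatives. These are the first 90 coding bases (GENCODE M21, GRCm38), and capitals mark the bases that differ from Gstm1, 15 in Gstm2 and 17 each in Gstm4 and Gstm7. Over the whole coding sequence of 657 bases, Gstm2 is 86.0%, Gstm7 82.6% and Gstm4 80.2% identical to Gstm1. Gstm5, whose coding sequence of 675 bases has another length, was not compared base by base.
Gstm1: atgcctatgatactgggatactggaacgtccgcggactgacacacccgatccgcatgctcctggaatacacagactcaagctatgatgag
Gstm2: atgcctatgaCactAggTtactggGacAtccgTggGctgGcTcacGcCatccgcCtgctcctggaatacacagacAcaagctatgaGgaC
Gstm4: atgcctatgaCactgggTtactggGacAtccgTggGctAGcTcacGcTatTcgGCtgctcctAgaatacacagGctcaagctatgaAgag
Gstm7: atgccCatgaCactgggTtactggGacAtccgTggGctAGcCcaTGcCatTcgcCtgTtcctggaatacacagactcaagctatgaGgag

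Gstm2 was at 49.4, 41.6 and 44.8 CPM in EL and at 1.25, 1.14 and 1.22 CPM in PT. It fell 37.5-fold (log2 fold change -5.23, SE 0.09, adjusted p = 1.57e-14, edgeR), and only 9.36% of its 50-base words occur in another gene model. The other 4 tested genes of the class were higher in PT. Gstm5 was at 17.8, 18.4 and 19.5 CPM in EL and at 31.4, 31.9 and 29.3 CPM in PT, without overlap (log2 fold change 0.73, SE 0.05, adjusted p = 3.4e-08, edgeR). Of its 50-base words 14.4% lie in another gene model. Gstm7 was low, at 0.663, 0.730 and 0.797 CPM in EL and 1.83, 1.29 and 1.69 CPM in PT, also without overlap (log2 fold change 1.13, SE 0.21, adjusted p = 0.000219, edgeR).

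Gstm1 was at 26.8, 28.9 and 30.6 CPM in EL and 31.8, 33.1 and 33.5 CPM in PT. Its lowest PT library was just above its highest EL library (log2 fold change 0.19, SE 0.05, adjusted p = 0.005, edgeR), and 23.1% of its 50-base words lie in other models. Gstm4 was at 11.6, 10.98 and 11.8 CPM in EL and at 12.6, 13.6 and 12.2 CPM in PT. Its groups did not overlap, but its call was marginal (log2 fold change 0.16, SE 0.07, adjusted p = 0.0449, edgeR). Without PT replicate 2 its adjusted p was 0.174, without EL replicate 2 it was 0.134, without EL replicate 3 0.0505 and without PT replicate 1 0.0667. It was 0.115 in DESeq2 and 0.0575 with RLE factors, and the alternatives other than a 2-fold minimum spanned 8.74e-05 to 0.174. Gstm3, with 1 count in EL and 4 in PT, and Gstm6, with 7 and 10, were not tested.

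The mu genes lie in a single cluster on chromosome 3 (mm10, positions of the RefSeq GRCm38.p6 annotation), which runs in the order Gstm5, Gstm7, Gstm6, Gstm3, Gstm2, Gstm1 and Gstm4 over 149.3 kb. Gstm2 occupies chr3:107981702-107986420 and Gstm1 chr3:108012250-108017973, with a gap of 25.8 kb between them. The gene with the 37.5-fold fall thus lies between neighbours that rose or had too few counts. In the theta cluster on chromosome 10, by contrast, the 3 tested neighbours all rose. The share of Gstm2 in the class, per kilobase, went from 46.3 ± 2.97% in EL to 1.67 ± 0.105% in PT, while Gstm5 went from 21.4 ± 1.07% to 48.1 ± 1.31% and Gstm1 from 24.3 ± 1.83% to 37.4 ± 1.43%. The summed level of the class was 105 ± 3.63 CPM in EL and 79.3 ± 1.63 CPM in PT.

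**Figure D4:**
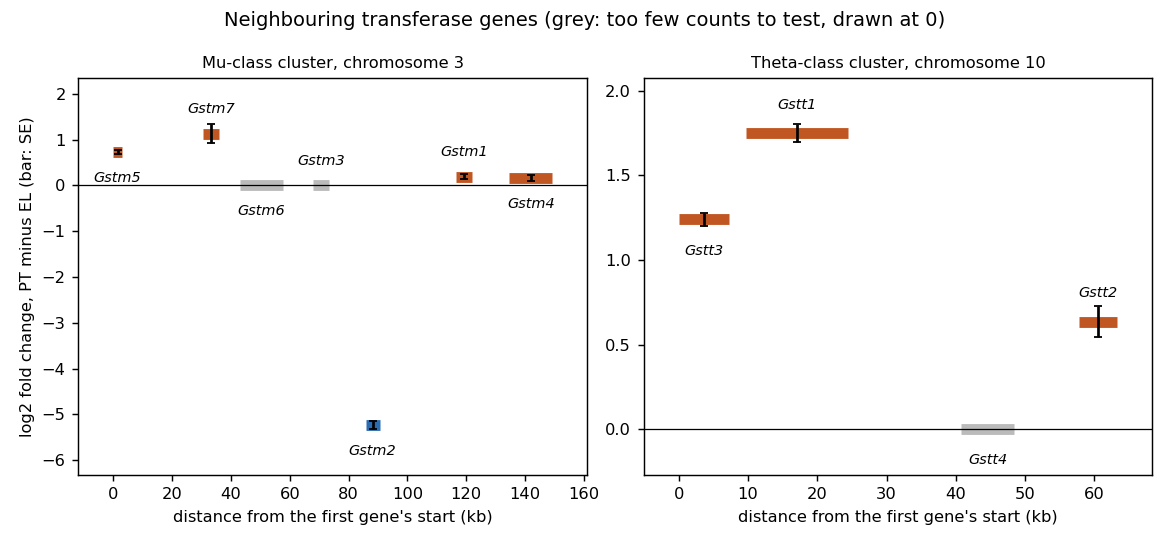
Log2 fold change (PT minus EL, y axis; bars are standard errors, 3 libraries per group) of the genes of the mu cluster and the theta cluster, drawn at their positions in kb from the start of the first gene. Gstm2 lies at -5.23, 25.8 kb from Gstm1 at 0.19; genes with too few counts to test are grey and drawn at 0.

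The omega and pi classes and the kappa gene were lower in PT. Gsto1, which has thioltransferase and dehydroascorbate reductase activity, was at 166, 159 and 159 CPM in EL and at 54.9, 58.1 and 53.9 CPM in PT. It fell 2.90-fold with no overlap (log2 fold change -1.54, SE 0.04, adjusted p = 3.4e-13, edgeR). Its neighbour Gsto2 was near the detection floor, at 0.761, 1.21 and 1.02 CPM in EL and 0.409, 0.824 and 0.449 CPM in PT. Those ranges overlapped, and its adjusted p of 0.0197 in edgeR (log2 fold change -0.82, SE 0.29) became 0.0820 without EL replicate 2, 0.0528 without EL replicate 3, 0.0798 without PT replicate 1 and 0.0781 without PT replicate 3, the alternatives other than a 2-fold minimum spanning 0.00297 to 0.0820.

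Gstp1, the pi-class enzyme often studied for drug resistance in tumours, was at 54.2, 56.2 and 54.5 CPM in EL and 41.4, 39.6 and 41.2 CPM in PT. It fell without overlap (log2 fold change -0.43, SE 0.04, adjusted p = 1.71e-07, edgeR). Gstp2 was at 0.933, 0.755 and 0.673 CPM in EL and at 0.175, 0.225 and 0.252 CPM in PT. It was lower without overlap too (log2 fold change -1.84, SE 0.28, adjusted p = 5.04e-05, edgeR), but 62.3% of the 50-base words of Gstp1 and 72.6% of those of Gstp2 occur in other models, mainly each other, so the 2 values are not independent. Gstk1, the mitochondrial kappa enzyme, was at 5.04, 4.83 and 5.23 CPM in EL and 3.39, 4.42 and 3.77 CPM in PT. Its log2 fold change was -0.38 (SE 0.12, adjusted p = 0.00845, edgeR), without overlap, and the calls of Gstk1 and Gsto2 did not hold with libraries scaled by totals.

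Promoter sequence was examined because the Nfe2l2 transcript was lower in PT while classical targets of NRF2 moved in different directions. The NRF2 protein was not measured. A search for the core of the antioxidant response element, TGACNNNGC, on both strands of the window from 250 bases before to 50 bases after each gene's start (RefSeq, GRCm38.p6) covered 42 of the 49 genes, and every listed start was searched where a gene had several. The core occurred in 9 of the 42 (21.4%), against 14.0% of 27025 symbols with a window and 17.1% of the genes tested with one. Of the 9 genes, 5 were higher in PT (Gstm5, Gstm7, Gclm, Prdx1 and Sod1), 3 were lower (Nfe2l2, Srxn1 and Gsta3) and Txnrd1 did not pass the test. In Txnrd1 the match lay in 1 of 3 windows and in Gstm7 in 1 of 2, and which of the starts was used was not measured. Hmox1, Gclc, Gsr, Gsta4, Gstt2, Prdx6 and Sod3 had no window and were not searched. Nqo1 had a window without a match. For any gene, a site outside the window, or one inside it spelled otherwise than this core, would have been missed. A match is only a string of letters, and no binding was measured. Per kilobase, Prdx1 was the most abundant of the 9 genes with a match. Its promoter is shown on the plus strand at chr4:116685349-116685648, with the match in capitals. The match reads on the opposite strand and starts 133 bases before the gene's start.
Prdx1: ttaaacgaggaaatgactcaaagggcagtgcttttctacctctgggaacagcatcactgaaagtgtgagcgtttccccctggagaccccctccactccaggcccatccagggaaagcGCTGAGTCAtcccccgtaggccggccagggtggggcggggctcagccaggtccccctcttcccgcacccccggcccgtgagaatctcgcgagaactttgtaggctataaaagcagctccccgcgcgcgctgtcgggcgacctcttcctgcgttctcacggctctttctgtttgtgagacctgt

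Shorter stretches around the same core are given for 4 genes that had a match and differed in their response: Gclm and Gstm5 were higher in PT, Srxn1 was lower and Txnrd1 did not pass. They lie on the plus strand at chr3:122245407-122245447 (Gclm), chr3:107895796-107895836 (Gstm5), chr2:152105536-152105573 (Srxn1) and chr10:82859098-82859138 (Txnrd1), with the match in capitals.
Gclm: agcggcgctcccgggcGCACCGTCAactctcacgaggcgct
Gstm5: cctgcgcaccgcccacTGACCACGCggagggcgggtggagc
Srxn1: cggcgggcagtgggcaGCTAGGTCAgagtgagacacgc
Txnrd1: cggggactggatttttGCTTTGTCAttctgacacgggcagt

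Genes of the wider pathway, from lists of textbook members, also divided. Over all genes tested, 39.9% were called higher and 40.8% lower, shares against which the counts of each list should be read. Of 14 regulators of the NRF2 pathway, 4 rose and 4 fell (median log2 fold change -0.004); with libraries scaled by totals 12 were called higher and 1 lower. Nfe2l1, the related factor NRF1, rose from 617 ± 3.36 to 1073 ± 7.88 CPM (mean ± SD, n = 3 each; log2 fold change 0.80, adjusted p = 1.94e-11, edgeR). The small partner protein Mafk rose from 50.3 ± 1.63 to 103 ± 4.58 CPM (1.04, adjusted p = 5.58e-11, edgeR) and the repressor Bach2 from 12.5 ± 2.01 to 25.01 ± 0.998 CPM (1.00, adjusted p = 2.14e-07, edgeR). Bach1, a heme-regulated repressor that competes with NRF2 at Hmox1, fell from 126 ± 3.32 to 81.1 ± 1.14 CPM (-0.64, adjusted p = 8.01e-10, edgeR).

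Of 24 further NRF2 target genes tested, 11 rose and 12 fell. The aldo-keto reductase Akr1b8 fell from 64.1 ± 0.796 to 1.43 ± 0.208 CPM (log2 fold change -5.48) and Ugdh, which makes UDP-glucuronate, from 147 ± 10.8 to 40.6 ± 1.92 CPM (-1.85). The epoxide hydrolase Ephx1 rose from 61.0 ± 0.909 to 174 ± 3.09 CPM (1.51), and the microsomal glutathione transferase Mgst1 rose from 323 ± 2.60 to 782 ± 19.6 CPM (1.28). The list had no common direction, as in the 42 antioxidant genes themselves. Its split was near that of all genes tested (39.9% called higher and 40.8% lower), so it sets the list apart little. Among 13 other glutathione transferases 7 rose and 3 fell, including Mgst1, a rise of Ptges2 from 43.9 ± 3.30 to 62.1 ± 1.68 CPM (0.50), a fall of the prostaglandin E synthase Ptges from 38.6 ± 3.99 to 1.04 ± 0.183 CPM (-5.21) and a fall of the elongation factor subunit Eef1g from 440.3 ± 6.54 to 279.9 ± 1.95 CPM (-0.65).

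Glutathione turnover and transport had 7 genes higher and 13 lower of 24 tested. The neutral amino acid carrier Slc1a4 fell from 72.8 ± 1.51 to 21.4 ± 0.813 CPM (log2 fold change -1.76), and the related Slc1a5 from 70.1 ± 3.71 to 18.0 ± 0.195 CPM (-1.96). Dpep1, a dipeptidase that splits cysteinylglycine, fell from 17.5 ± 1.09 to 0.154 ± 0.102 CPM (-6.79), and Ggt7, of the gamma-glutamyltransferase family, from 15.5 ± 1.17 to 1.40 ± 0.156 CPM (-3.46). With libraries scaled by totals the split of this list turned to 13 higher and 11 lower. Of 20 genes of thioredoxin-like proteins and methionine sulfoxide repair, 10 rose and 8 fell. The methionine sulfoxide reductases Msrb3 and Msrb1 rose from 130.4 ± 3.04 to 232 ± 4.93 CPM (0.83) and from 68.5 ± 2.09 to 124 ± 4.17 CPM (0.86), while nucleoredoxin (Nxn) fell from 146 ± 6.48 to 17.9 ± 0.862 CPM (-3.03) and Txndc5, a protein disulfide isomerase of the endoplasmic reticulum, from 478 ± 54.2 to 158 ± 7.81 CPM (-1.60).

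Selenoproteins and the genes that build them had 5 higher and 10 lower of 18 tested. Selm fell from 63.2 ± 3.11 to 18.6 ± 0.174 CPM (log2 fold change -1.76), Sepn1 from 132 ± 2.88 to 60.9 ± 1.92 CPM (-1.12), Sep15 from 347 ± 3.33 to 237 ± 2.27 CPM (-0.55) and the deiodinase Dio2 from 10.1 ± 0.234 to 3.10 ± 0.217 CPM (-1.70). The first 3 of these are selenoproteins of the endoplasmic reticulum, and they fell with Gpx3. The selenoproteins Gpx1 and Gpx4 rose, and the selenoenzyme Txnrd1 did not pass the test. The 4 genes named from the list are those of smallest p, and the list was not divided by compartment. Among its other selenoproteins, Sepw1 fell from 191.3 ± 4.38 to 152.8 ± 5.44 CPM (-0.325), and Selt changed little (-0.083). With libraries scaled by totals, 9 of the 18 were called higher and 7 lower.

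Suppliers of NADPH, which both glutathione reductase and thioredoxin reductase consume, had 10 higher and 7 lower of 17. H6pd, the hexose-6-phosphate dehydrogenase of the endoplasmic reticulum, fell from 227 ± 3.55 to 41.4 ± 0.566 CPM (log2 fold change -2.45). Of the mitochondrial folate enzymes, Aldh1l2 fell from 199 ± 12.97 to 19.4 ± 1.54 CPM (-3.36), and Mthfd2 from 76.2 ± 4.18 to 23.4 ± 1.09 CPM (-1.71). Transketolase (Tkt), of the cytosolic pentose phosphate pathway, rose from 175 ± 6.05 to 331 ± 4.93 CPM (0.92).

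The peroxisome list moved in 1 direction: 16 of 18 genes rose and the other 2 did not pass the test, with a median log2 fold change of 0.35 against 0.00487 for all genes. Of all genes tested, 39.9% were called higher. The fatty acid transporter Abcd3 rose from 107 ± 1.37 to 177 ± 2.61 CPM (0.72), the beta-oxidation enzymes Hsd17b4 and Acaa1a from 82.6 ± 2.55 to 116 ± 2.00 CPM (0.49) and from 56.7 ± 1.91 to 75.8 ± 0.726 CPM (0.42), and the import receptor Pex5 from 82.6 ± 1.30 to 107 ± 1.85 CPM (0.37). Catalase, which works in this compartment, rose by 0.51 on the same scale. The epithelial marker list rose with these genes, and its part was not tested.

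**Figure D5:**
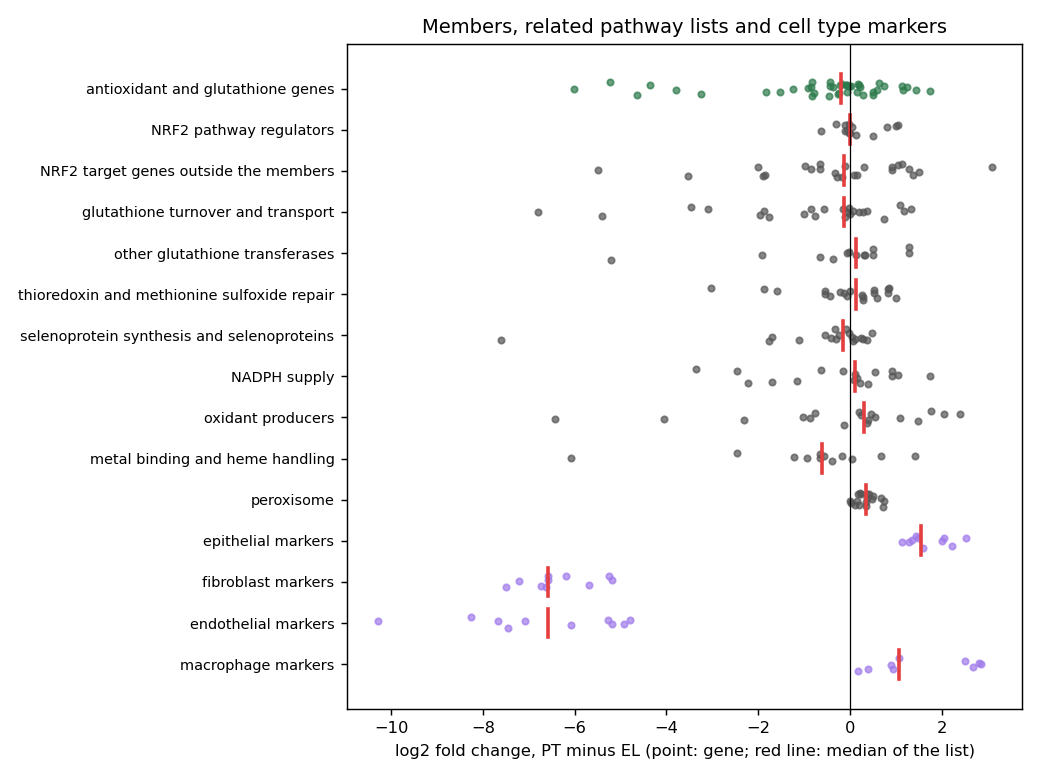
Log2 fold change (PT minus EL, x axis) of each tested gene of the antioxidant set, 10 related pathway lists and 4 lists of cell type markers; each point is a gene and the red line is the list's median. The antioxidant genes have a median of -0.19, the fibroblast markers of -6.58 and the epithelial markers of 1.54.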

How the data were processed

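The authors deposited whole-number read counts per RefSeq transcript, not normalised, made with STAR and featureCounts on mm10 per the submitters' processing notes, which also name hg19 and DESeq2 (versions, parameters, strand: not given in the sources used here). In EL replicate 1 the table breaks off after 27664 of 33068 rows. Rows present in all 6 tables were used, with the transcript of highest mean count per symbol (19893 symbols). No row lacked a symbol. edgeR 4.0.16 in R 4.3.3 (filterByExpr, TMM factors, quasi-likelihood test, Benjamini-Hochberg adjustment over 13844 genes, threshold 0.05) compared PT with EL, and DESeq2 1.42.0 and limma 3.58.1 served as alternatives. CPM used TMM-scaled totals of the chosen transcripts, between 43278382 and 51117359 before scaling. The fit was also run on simulated counts with few changed genes and the same spread for all genes. These data differ in both, so that run does not check the scaling or the error rate here. The antioxidant genes, the pathway and marker lists and the alternatives were chosen with earlier results of these data known. Each gene of the set was described or counted, with each library's value from a mean of 10 CPM or a called 2-fold change, and up to 4 genes of smallest p per pathway list. All 49 genes matched a GENCODE transcript and a RefSeq position. No table of proteins was used. Reads of overlapping, antisense or near-identical genes cannot be told apart. No 2 libraries agreed within sampling noise.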

Additional observations from a re-analysis of the deposited data

How the results depend on the processing

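The side of the threshold held for 614 of 630 results of single antioxidant genes under 15 alternatives (RLE and upper-quartile factors, DESeq2, limma-voom, other count filters, other transcript choices, a replicate block and each library left out). The 16 others belonged to Gclc, Gsr, Gstm4, Gsto2 and Keap1. Under these alternatives the sign turned only in estimates that passed no test, for Txnrd1 (0.0325 with upper-quartile factors, 0.0039 without EL replicate 3 and 0.0065 without PT replicate 2) and Prdx3 (-0.0038 without EL replicate 1). With libraries scaled by totals alone, log2 fold changes turned positive for Gclc (0.17), Gsr (0.16), Keap1 (0.18), Prdx5 (0.0062), Sod2 (0.0390), Txn1 (0.0784) and Txnrd1 (0.22). That scaling moved the median of all genes up by 0.247, and these genes moved with it. Which scaling is nearer the truth was not tested. Against a 2-fold minimum change, 4 of the antioxidant genes were called higher and 8 lower, and 1010 and 2391 of all genes. Leaving out each library gave 14 to 15 genes higher and 21 to 24 lower, and over all genes 5277 to 5575 higher and 5481 to 5708 lower. Same-numbered EL and PT libraries did not deviate together (correlations 0.022, 0.008 and -0.002), so the numbers do not pair them; with a replicate block 14 genes were higher and 23 lower, Gstm4 no longer passing (adjusted p = 0.0545, edgeR) and Gsr passing (0.0393). DESeq2 called 14 higher and 22 lower. Since every gene of the set was in all tables, nothing was left to recompute for absent ones. The 7 untested genes held at most 12 counts in any library, and Gpx5 and Gpx6 held 0 in every one. Whether depth or absent expression lay behind this was not tested.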

Other observations

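Genes that produce oxidants, a list of NADPH oxidases, lysyl oxidases and other oxidases, were divided: 10 of 18 tested were higher and 7 lower in PT (median log2 fold change 0.31, against 0.00487 for all genes). The calls over all genes tested were 39.9% higher and 40.8% lower. Lox, the lysyl oxidase that cross-links collagen and releases hydrogen peroxide, fell from 1782 ± 349.8 to 20.8 ± 2.53 CPM (mean ± SD of 3 EL and 3 PT libraries), a log2 fold change of -6.42 with an SE of 0.15 (adjusted p = 2.18e-13, edgeR). Aox1, aldehyde oxidase, fell from 15.6 ± 0.518 to 3.15 ± 0.338 CPM (-2.31). The epithelial oxidase Duox1 rose from 2.36 ± 0.185 to 12.3 ± 0.243 CPM (2.39), and Noxo1, an organiser subunit of NADPH oxidase 1, from 23.7 ± 1.76 to 65.8 ± 1.58 CPM (1.48). The fibroblast markers fell and the epithelial markers rose between the same libraries, and their part was not tested.

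In the list of metal binding and heme handling, 8 of 12 tested genes fell and 2 rose (median -0.61). Over all genes tested, 40.8% were called lower and 39.9% higher. Haptoglobin (Hp), which binds free haemoglobin, fell from 302 ± 24.7 to 4.44 ± 0.617 CPM (log2 fold change -6.08), and the metallothionein Mt2 from 250.4 ± 31.7 to 45.2 ± 4.26 CPM (-2.47). The 2 that rose were ceruloplasmin (Cp), a copper-carrying ferroxidase, from 1646 ± 79.6 to 4395 ± 153 CPM (1.42), and the transferrin receptor Tfrc, from 45.5 ± 0.586 to 73.0 ± 2.02 CPM (0.68).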
